A study of Mus musculus with 3 samples.

Results

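The genes described here are the splicing factors of 5 families: the hnRNP proteins (21 genes), the SR proteins (11), the SF3A and SF3B subunits (9), the SRRM proteins (4) and the U2AF subunits (2). They were chosen by a pattern of symbols, with earlier results of these data known. The pattern took every symbol beginning with Hnrn, every Srsf, Sf3a or Sf3b symbol ending in a number, Srrm1 to Srrm4, and U2af1 and U2af2. Together they make 47 of the 32531 genes with a row of counts. The material is RNA on tagged ribosomes from the dentate gyrus of adult C57BL/6J mice of the Penk-TRAP line NIDA186, in 3 libraries of 1 untreated group named replicates 1 to 3. In this line the ribosomal protein Rpl10a fused to EGFP, a fluorescent protein, is made under regulatory DNA of Penk, the proenkephalin gene, and ribosomes that carry the tag are pulled down with antibodies against EGFP. All libraries are such pull-downs. Without an unbound or whole-tissue library among those analysed here, each level is a comparison with other genes of the same library, not an enrichment over tissue.

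Pre-mRNA splicing removes introns at sites read by these proteins. SR proteins mostly bind exonic enhancers through RNA recognition motifs and recruit the spliceosome through arginine-serine domains, whereas hnRNP proteins coat nascent RNA and often keep sites from being used. At the 3′ end of the intron U2AF recognises the polypyrimidine tract and the AG dinucleotide, and SF3A and SF3B, as parts of the U2 snRNP, settle at the branch point. SRRM proteins are arginine-serine-rich scaffolds, of which Srrm4 and Srrm3 are known for the inclusion of microexons in neurons. Many SR and hnRNP genes also limit their own protein by making transcripts that are destroyed by nonsense-mediated decay.

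Several members have processed copies elsewhere in the genome, and reads aligned to several places are listed apart from the genes, so the coding stretches below bear on which levels can be read. Each is the 50-base coding stretch of its gene that occurs in the most other annotated genes, from GENCODE vM21 transcripts on GRCm38, written 5′ to 3′ on the gene's strand in lower case with nothing marked in capitals.
Hnrnpa3, chr2:75661505-75661554, plus strand, in 23 other genes: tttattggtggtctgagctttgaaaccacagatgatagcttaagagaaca
Hnrnpf, chr6:117924559-117924608, plus strand, in 8 other genes: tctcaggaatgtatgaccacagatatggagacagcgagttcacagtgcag
U2af1, chr17:31648845-31648894, minus strand, in 3 other genes: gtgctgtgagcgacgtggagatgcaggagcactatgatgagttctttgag
Sf3b4, chr3:96172971-96173020, plus strand, in 1 other gene: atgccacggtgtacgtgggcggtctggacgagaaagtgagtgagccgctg

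Of the 47 members, 12 had at least 10% of their 50-base transcript windows in another annotated gene, 3 had from 2% to under 10%, 19 had some but under 2%, and 13 had none. The largest share, 56.7% of windows, belonged to Hnrnpa1l2, which the annotation lists as a processed pseudogene. Sf3b4 followed at 43.6%, all shared with the pseudogene Gm7935, and Hnrnpf at 43.2%, shared with 9 genes of which 7 are pseudogenes. Hnrnpa1 shared 28.2% of its windows with 20 genes, 19 of them pseudogenes, and Hnrnpa3 shared 26.9% with 45 genes, 41 of them pseudogenes. U2af1 stood at 21.7%, Hnrnph2 at 15.9%, U2af2 at 14.7% and Hnrnpk at 14.5%, and the remaining 3 of the 12, Srsf10, Srsf5 and Srsf3, at 10.3, 10.1 and 10.04%. The counted levels of these 12 genes are therefore uncertain. Exons of 6 members were also overlapped by another gene over at least 10% of their length. These were Srsf4 (43.0%), Hnrnpab (29.1%), Hnrnpf (26.5%), Srsf2 (25.3%), Sf3a2 (16.1%) and Hnrnpm (14.7%). The strand setting of the counting was not given in the sources used here, and the effect of these overlaps on the counts was not tested.

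**Figure D1:**
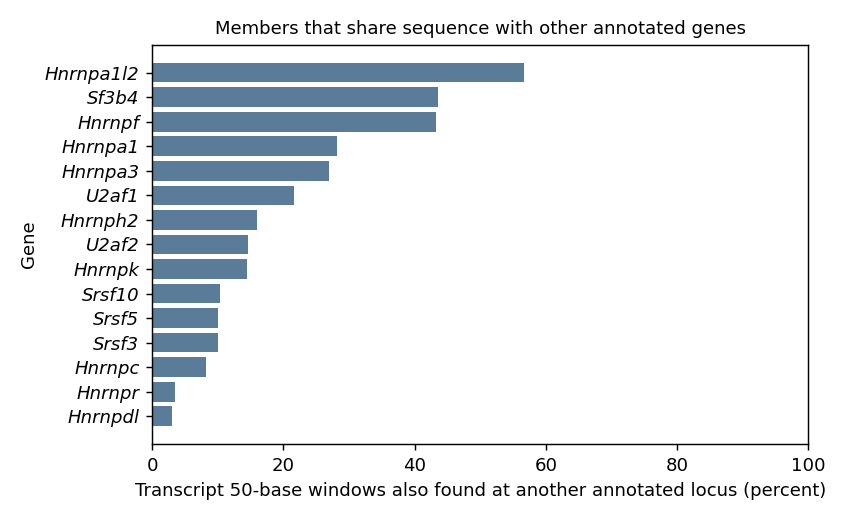
Share of each gene's 50-base transcript windows that also occur in another annotated gene, in percent, for the members with the largest shares (1 bar per gene). Hnrnpa1l2 reaches 56.7%, followed by Sf3b4 at 43.6% and Hnrnpf at 43.2%.

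The libraries held 5348761, 19195559 and 11059982 counts on genes in replicates 1 to 3, and 40, 46 and 43 of the 47 members reached 10 counts. Reads placed on genes made 16.3, 38.2 and 21.1% of those listed, and reads aligned to several places 32.2, 24.8 and 37.5%. Among preset cell type markers, 4 of 6 tested neuronal genes and 3 of 5 tested granule cell genes stood above the median gene by the test defined below. Of the 6 listed GABAergic genes 3 were tested, and 1 of these stood above it. The granule cell list has 8 genes, of which C1ql3, Calb1 and Tdo2 had 0, 2 and 1 counts in replicate 1 and were not tested. Of the glial lists, 3 of 5 tested oligodendrocyte genes and 1 of 4 tested astrocyte genes stood above it, and the 1 tested microglial gene stood below it. Of the endothelial genes, 0 of 4 tested stood above it and 0 below. Among all 8138 tested genes, 10.5% stood above the median gene by that test and 4.2% below. The microglial markers summed to 3.30, 6.90 and 21.5 CPM (counts on a gene scaled to a common library size) and the endothelial markers to 55.4, 209.6 and 402.6 CPM, with C1qa of microglia at 0 in every library, and their part in the levels below was not tested. In such bulk samples fewer cells of a type and less RNA per cell cannot be told apart. Separate animals are not stated for the replicates, and the p-values then measure only the spread between these libraries, which may be technical.

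Levels are given as CPM per kilobase (kb) of merged exon, so that genes of different length can be compared. The median tested gene had 5.56, 6.39 and 6.19 CPM per kb in replicates 1 to 3, and a gene's log2 level is its distance from that median, averaged over the libraries. With limma's TREAT test, which asks for a distance of more than 1 log2 unit, 3 of 40 tested members stood above the median tested gene at an adjusted p under 0.05: Srrm2, Hnrnpa3 and Hnrnpa0. Over all 8138 tested genes, 10.5% were called above, so the members' 7.5% is near that background. None of the members was called below, where 4.2% of all tested genes were. With edgeR's quasi-likelihood test in place of limma, 5 of 40 members were above, beside 13.7% of all tested genes, and 0 were below; with no distance required, limma called 13 above and 2 below, beside 21.8 and 12.9% of all tested genes. Single libraries set the count: without replicate 1, 14 of 43 members were above, beside 14.8% of all genes then tested, without replicate 2 it was 1 of 40 beside 7.67%, and without replicate 3 it was 2 of 43 beside 7.89%.

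The other 7 members did not pass the filter on low counts: Hnrnph2, Hnrnph3, Hnrnpa1l2, Srsf4, Sf3b4, Sf3b5 and Sf3a2. Over all 47 members the median log2 level was 0.26, and by family it was 1.89 for SRRM, 0.92 for hnRNP, 0.52 for SR, -0.28 for U2AF and -0.93 for SF3. Among tested members alone it was 1.89, 1.08, 0.58, -0.28 and -0.085 in the same order, so SF3 then stood above U2AF. Of the 40 tested members, whose median was 0.58, 20 lay above the library's median gene in every library and 7 below it in every library. Among all tested genes the median was -0.14, and 31.1% lay above and 29.7% below in every library. The single bin that held the most members was from 1 to 2 log2 units, with 14 members or 35% of those tested, where 14.8% of all tested genes fell. That bin was picked for its number of members. From 2 to 3 log2 units the shares were 7.5% of members and 7.77% of all tested genes, and from 3 to 4 they were 0 and 3.56%.

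**Figure D2:**
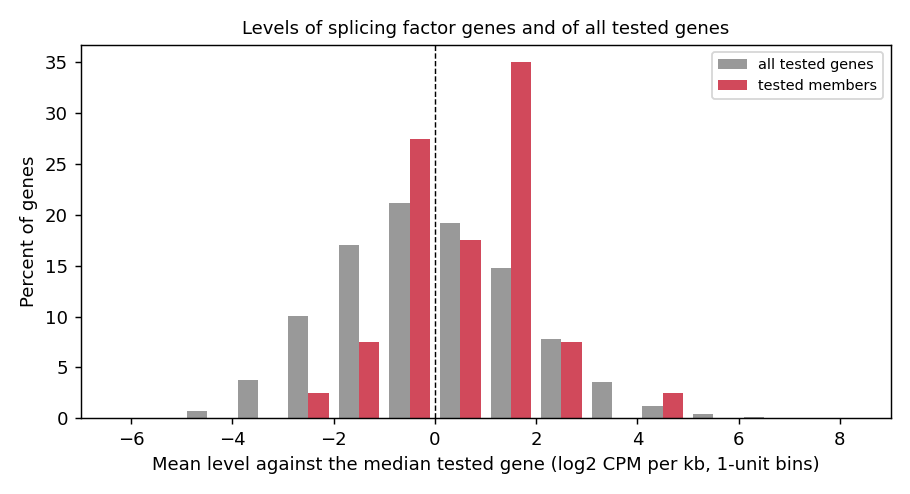
Percent of genes in each 1-unit bin of mean log2 level against the median tested gene (dashed line at 0), for all 8138 tested genes (grey) and the 40 tested members (red). The bin from 1 to 2 holds 35% of the members and 14.8% of all tested genes, and the 1 member between 4 and 5 is Srrm2.

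Srrm2, a large scaffold of nuclear speckles (chr17:23790532-23824741 on GRCm38, plus strand, protein-coding), was the most abundant member by a wide margin. It had 8915, 30163 and 27565 counts, or 164, 103 and 184 CPM per kb in replicates 1 to 3. Every library placed it above every other member, and it alone supplied 37.8, 29.8 and 42.7% of all counts on the members. Its log2 level was 4.59 ± 0.51 (SD, n = 3; adjusted p = 1.64e-06, limma TREAT), and it was called above under every alternative tried.

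Srrm1, a related scaffold protein, had 51.5, 18.7 and 17.5 CPM per kb, with replicate 1 standing alone above the other libraries. Its log2 level of 2.09 missed the threshold (adjusted p = 0.0785, limma TREAT), but passed it on CPM without length, with either other length, with no filter, with edgeR and without replicate 1 (levels 2.02 to 4.03, adjusted p = 2.92e-05 to 0.0421 by limma TREAT or edgeR). Srsf11 passed under the same alternatives, as did Hnrnpa2b1 except with edgeR, and Sf3b1 except with edgeR and the median coding transcript. Srrm4, the neuronal microexon regulator, had 40.3, 10.6 and 17.6 CPM per kb, again highest in replicate 1, and a log2 level of 1.70. That level missed the threshold (adjusted p = 0.276, limma TREAT). Among alternatives that kept the distance of 1 log2 unit, Srrm4 passed on CPM without length and with no filter (adjusted p = 0.0194 and 0.000241, limma TREAT). Its relative Srrm3, also linked to microexons, had 29, 215 and 43 counts, or 1.07, 1.47 and 0.574 CPM per kb. Srrm4 exceeded Srrm3 in each library by 5.21, 2.84 and 4.88 log2 units, so the ranges of the genes did not overlap. Srrm2 exceeded Srrm1 by 1.67, 2.46 and 3.39 log2 units. In both pairs the exact sign-flip permutation test gave 0.25 (two-sided), the smallest p that 3 libraries allow.

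Per kb of merged exon the hnRNP members were led by the A/B type, whose proteins carry tandem RNA recognition motifs and are classical repressors of splice sites. On CPM without length Hnrnpu was highest (log2 level 2.70), above Hnrnpa3 (2.45) and Hnrnpa0 (1.53). With the median coding transcript Hnrnpa3 (3.22) and Hnrnpa2b1 (2.76) led, but Hnrnpk (2.55) stood above Hnrnpa0 (1.36). Hnrnpa3 and Hnrnpa1 are also among the genes whose counted levels are uncertain through shared sequence. Hnrnpa0, an A-type protein encoded by a gene with 1 annotated transcript (chr13:58125879-58128556, minus strand), had 46.7, 47.0 and 18.1 CPM per kb. Replicates 1 and 2 were nearly equal and replicate 3 lower. Its log2 level was 2.50 ± 0.83 (SD, n = 3; adjusted p = 0.0267, limma TREAT). Hnrnpa3 (chr2:75659261-75669407, plus strand), the gene with the stretch found in 23 other genes, had 25.7, 41.5 and 30.9 CPM per kb and stood well above the median gene in each library. Its log2 level was 2.41 ± 0.26 (SD, n = 3; adjusted p = 0.0172, limma TREAT). Both calls depended on single choices. Without replicate 2, which held the most counts, both were lost, at log2 levels of 2.22 and 2.18 (adjusted p = 0.31 for Hnrnpa0 and 0.232 for Hnrnpa3, limma TREAT). Without replicate 3 that of Hnrnpa3 was lost at a level of 2.59 (adjusted p = 0.0682, limma TREAT). With the longest transcript as length both were lost as well (adjusted p = 0.126 and 0.0846, limma TREAT), and that of Hnrnpa0 also on CPM without length (0.389), with the median coding transcript (0.532) and after thinning all libraries to the smallest (0.0598).

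Hnrnpa1, a shuttling repressor of exon inclusion, had 23.9, 21.99 and 25.3 CPM per kb. Of all tested members it varied least, with a log2 range of 0.20 between the libraries. Hnrnpa2b1, its close relative, had 14.3, 32.2 and 24.7 CPM per kb, lowest in replicate 1. Both had a mean of 23.7 CPM per kb, and Hnrnpa2b1 minus Hnrnpa1 averaged -0.08 ± 0.64 log2 units (SD, n = 3; exact sign-flip permutation p = 0.75), positive in 1 of 3 libraries. Which of them leads depends on the length and the libraries used. With the longest transcript the difference was 0.76, with CPM alone 0.99, and with the median coding transcript, the length added after seeing the data, 1.07. Without replicate 1 it was 0.26. Hnrnpa1 shared 28.2% of its windows with other genes and Hnrnpa2b1 0.59%, and the part of this in the difference was not tested.

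Hnrnpu, which also binds chromatin as a scaffold attachment factor, had 17.7, 12.3 and 25.9 CPM per kb. Its log2 level of 1.56 missed the threshold (adjusted p = 0.345, limma TREAT). With the distance of 1 log2 unit kept, it passed on CPM without length, with no filter and without replicate 1 (adjusted p = 0.00332, 0.000616 and 0.0337, limma TREAT). Its relatives Hnrnpul1 and Hnrnpul2 had 18.1, 13.9 and 7.94, and 10.3, 16.9 and 23.3 CPM per kb. The 3 genes overlapped in range, and no order among them held in every library: Hnrnpu minus Hnrnpul1 was 0.50 ± 1.05 log2 units and Hnrnpul2 minus Hnrnpul1 was 0.34 ± 1.18 (SD, n = 3; exact sign-flip permutation p = 1 and 0.75). In replicate 3 alone both Hnrnpu and Hnrnpul2 were above Hnrnpul1 by more than 1.5 log2 units.

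The F/H type binds runs of guanines. Hnrnph1 had 5.77, 20.3 and 18.4 CPM per kb, lowest in replicate 1. Hnrnph2, encoded on chromosome X, had 0, 728 and 607 counts, or 0, 7.27 and 11.9 CPM per kb. A count of 0 in replicate 1 allows up to 0.162 CPM per kb (3 counts, counting error only), which puts Hnrnph1 at least 35.6-fold higher there. In the other libraries the genes were much closer, at 1.48 and 0.63 log2 units in favour of Hnrnph1, so the mean difference over all 3 libraries rests on the zero and is not given as a size. Hnrnph3 had 2, 145 and 14 counts and Hnrnpf 12, 283 and 54, both highest in replicate 2. The lowest hnRNP members per kb were Hnrnph3, at 0.150, 2.01 and 0.380, and the pseudogene Hnrnpa1l2, at 0.978, 0.408 and 0.178 from 4, 9 and 2 counts.

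The remaining hnRNP members lay between these. The uridine-binding Hnrnpc averaged 17.0 CPM per kb, Hnrnpd, a binder of AU-rich mRNA elements, 13.9, its relatives Hnrnpab and Hnrnpdl 12.8 and 9.60, and the cytosine-binding Hnrnpk 12.2. Hnrnpab and Hnrnpdl had log2 ranges of 3.84 and 2.88, both lowest in replicate 1 and highest in replicate 2, while Hnrnpk was lowest in replicate 3. By log2 level Hnrnpk (0.92) stood above Hnrnpab (0.38) and Hnrnpdl (0.26). Hnrnpm, with 3.85, 4.55 and 4.50 CPM per kb, was the only tested member whose counts did not vary beyond sampling noise (adjusted p = 0.21, Poisson chi-square test). Hnrnpll, Hnrnpl and Hnrnpr averaged 3.95, 3.56 and 2.05 CPM per kb. For Hnrnpr the value rests on the annotation, since its merged exons span 22199 bases and its median coding transcript 2543: its log2 level was -1.65 with the first length and 0.34 with the second.

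**Figure D3:**
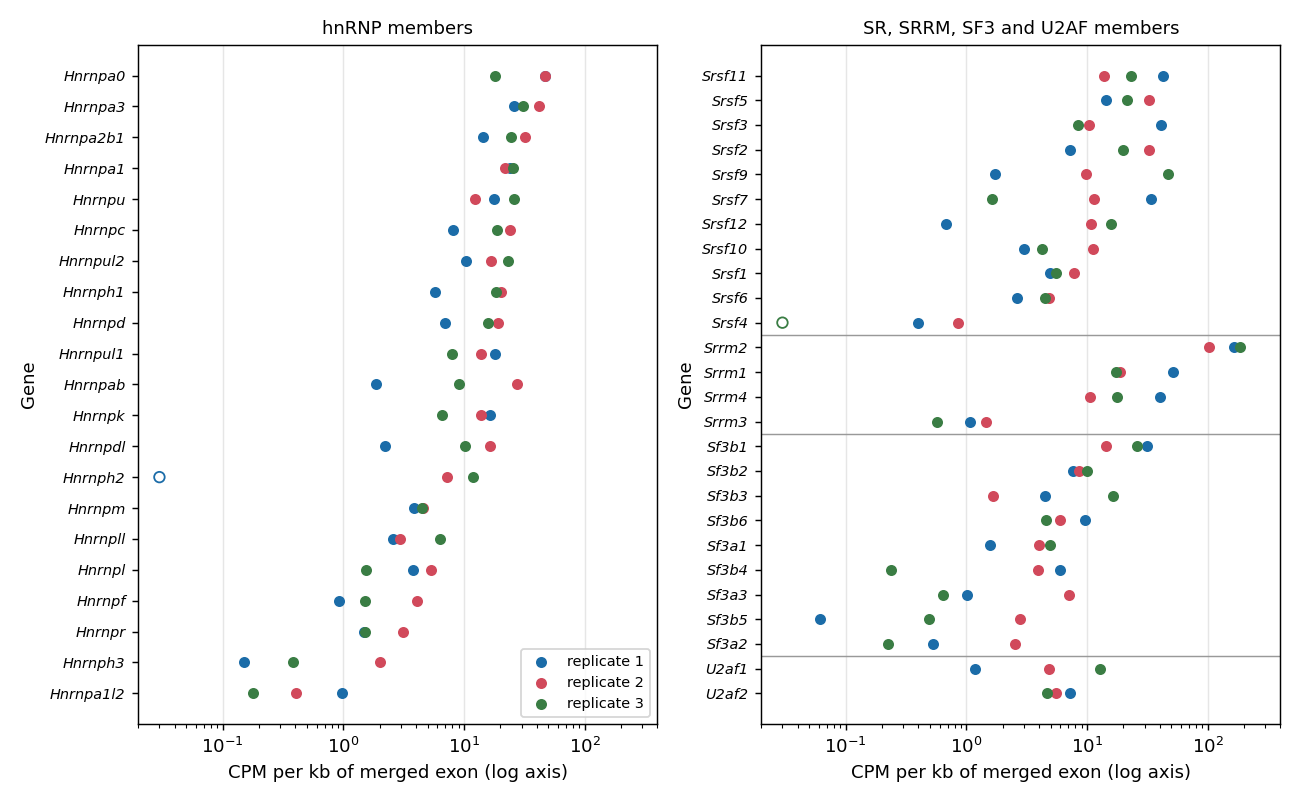
Level of each of the 47 members in each library, in CPM per kb of merged exon on a log axis, hnRNP members at left and SR, SRRM, SF3 and U2AF members at right (1 point per library; an open circle at the left edge marks 0 counts). Srrm2 lies at 103 to 184, apart from all other members, and the points of Srsf9, Srsf12 and Srsf7 are spread widely.

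The SR proteins covered a wide span of levels, and the 3 tested members with the largest ranges between libraries are among them. Srsf11, an SR-related protein with an arginine-serine domain, had 42.8, 13.8 and 23.2 CPM per kb and the highest mean of the family. Srsf5, of the group with tandem RNA recognition motifs, had 14.3, 32.6 and 21.6 CPM per kb. Srsf3, the smallest SR protein, had 41.3, 10.3 and 8.43 CPM per kb. The libraries did not rank these genes alike: replicate 1 was highest for Srsf11 and Srsf3 and lowest for Srsf5. Srsf2, known as SC35, had 7.25, 32.5 and 19.8 CPM per kb, with replicate 1 lowest.

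For 3 SR genes the libraries differed by more than 20-fold. Srsf9 had 12, 368 and 905 counts, or 1.71, 9.72 and 46.8 CPM per kb, which is 27.4-fold from the lowest library to the highest. Srsf12 had 9, 772 and 581 counts, or 0.674, 10.7 and 15.8 CPM per kb. Srsf7, which has a zinc knuckle, ran the other way with 512, 920 and 68 counts, or 34.002, 11.3 and 1.64 CPM per kb. Their log2 ranges were 4.70, 4.45 and 4.34, the largest of the tested members. Replicate 1 was lowest for Srsf9 and Srsf12 and highest for Srsf7.

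Srsf1, the prototype SR protein, had 4.95, 7.78 and 5.57 CPM per kb and lay at the median gene, with a log2 level of 0.00. Srsf11 exceeded it by 3.10, 0.82 and 2.05 log2 units in replicates 1 to 3, a difference of 1.99 ± 1.14 (SD, n = 3). Srsf6 had 2.65, 4.84 and 4.50 CPM per kb, and the related Srsf5 exceeded it by 2.42, 2.75 and 2.26 log2 units. The spread of the Srsf5 difference was the smallest of the 10 pairs, at 2.47 ± 0.25 (SD, n = 3). Both differences had the same sign in 3 of 3 libraries, with an exact sign-flip permutation p of 0.25. Srsf10, which represses splicing when dephosphorylated, averaged 6.17 CPM per kb. Srsf4 was the lowest SR gene, with 6, 70 and 0 counts, or 0.397 and 0.858 CPM per kb and, at 0 counts, an upper limit of 0.0721.

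**Figure D4:**
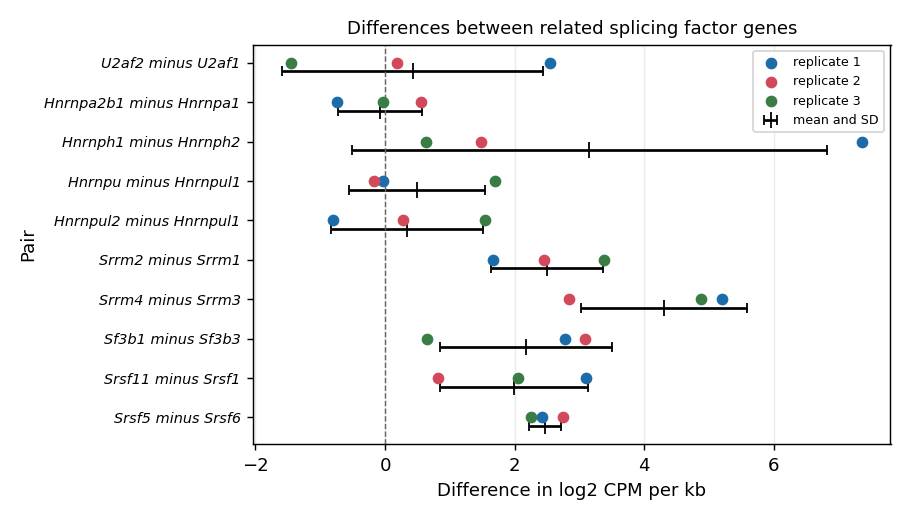
Difference in log2 CPM per kb between the genes of each of 10 pairs, 1 point per library with the mean and SD (n = 3) in black and a dashed line at 0. Srsf5 minus Srsf6 spans 2.26 to 2.75, while the point of Hnrnph1 minus Hnrnph2 in replicate 1 rests on 0 counts of Hnrnph2 and depends on the prior count.

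Mean levels of the genes for SF3B subunits differed, but among the SF3 genes a difference was tested for Sf3b1 and Sf3b3 alone. The SF3A genes overlapped in range. Sf3b1, the subunit that holds the branch site, had 31.1, 14.3 and 25.7 CPM per kb, the highest of the 9. Sf3b3, also of the SF3B core, had 209, 418 and 2088 counts, or 4.51, 1.67 and 16.4 CPM per kb, with replicate 3 far above the others. Sf3b1 exceeded Sf3b3 by 2.78, 3.09 and 0.65 log2 units (2.17 ± 1.33, SD, n = 3; exact sign-flip permutation p = 0.25).

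Sf3b2 was steady at 7.67, 8.52 and 10.01 CPM per kb, with a log2 range of 0.38, the third smallest of the tested members. Sf3b6, the small subunit next to the branch adenosine, had 9.58, 6.01 and 4.59 CPM per kb. Both lay close to the median gene, at log2 levels of 0.53 and 0.10. The RNA-binding subunit Sf3b4 had 55, 194 and 6 counts, or 6.00, 3.92 and 0.237 CPM per kb, and is the gene that shares 43.6% of its windows with a pseudogene. Sf3b5 had 1, 245 and 22 counts, or 0.0614, 2.78 and 0.490 CPM per kb.

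The SF3A genes were all below the median gene on average. Sf3a1 had 1.57, 4.03 and 4.93 CPM per kb. Sf3a3 had 12, 450 and 21 counts, or 1.02, 7.05 and 0.645 CPM per kb, so replicate 2 alone lay above the median gene. Sf3a2 had 6, 155 and 7 counts, or 0.532, 2.55 and 0.225 CPM per kb, again highest in replicate 2. In replicate 1 the 3 untested SF3 genes Sf3b4, Sf3b5 and Sf3a2 had 55, 1 and 6 counts, near the limit of 3 counts for all but the first of them.

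U2af2, the large subunit that binds the polypyrimidine tract, had 126, 521 and 224 counts, or 7.22, 5.53 and 4.66 CPM per kb. U2af1, the small subunit that reads the AG, had 13, 289 and 388 counts, or 1.18, 4.86 and 12.8 CPM per kb. Their order turned between libraries, with U2af2 above U2af1 by 2.55 and 0.18 log2 units in replicates 1 and 2 and below it by 1.45 in replicate 3. The mean difference of 0.43 ± 2.01 was smaller than its spread (SD, n = 3; exact sign-flip permutation p = 0.75). Both genes are among those that share sequence with pseudogenes.

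Counts of 39 of 40 tested members varied between the libraries by more than sampling noise, beside 97.4% of all genes tested for it, so the test does not separate the members from other genes. The median log2 range was 1.42 among tested members and 1.82 among all tested genes, and a range over 2 was found for 11 members (27.5%) and for 44.5% of all tested genes. A range under 1 was found for 8 members and for 20.6% of all tested genes. On TMM-scaled CPM replicate 1 was the lowest library for 22 of 40 members, beside 42.8% of all tested genes, and replicate 2 the highest for 19, beside 31.2%. Of the 18 tested hnRNP genes, 12 were highest in replicate 2 and 12 lowest in replicate 1.

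Summed levels of the families depended on how the libraries were scaled. On TMM-scaled CPM the hnRNP sum was 1230, 1846 and 1624 CPM, and as a share of the counts on genes 0.0976, 0.220 and 0.172%, lowest in replicate 1 on both scales. The SR sum was 955.1, 663.2 and 623.2 CPM, highest in replicate 1, but its share was 0.0757, 0.0791 and 0.0659%, highest in replicate 2. Likewise the SRRM sum was 2834, 1555 and 2642 CPM, highest in replicate 1, and its share 0.225, 0.186 and 0.279%, highest in replicate 3. No order of the libraries is therefore read from the SR and SRRM sums. The SF3 sum was 509.9, 326.3 and 587.3 CPM, and that of U2AF 32.77, 35.36 and 52.36 CPM. All members together summed to 5562, 4426 and 5529 CPM, lowest in replicate 2, and to 0.441, 0.528 and 0.584% of the counts on genes, lowest in replicate 1. The 6 listed nuclear long noncoding RNAs took 7.91, 2.28 and 4.02% of the counts on genes, highest in replicate 1, and their part in these sums was not tested.

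**Figure D5:**
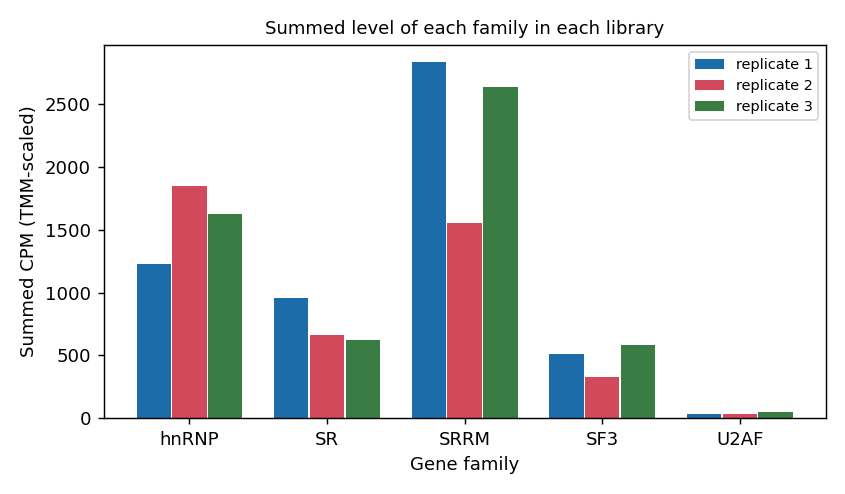
Summed TMM-scaled CPM of each family in each library (bars from 0, 1 per library; no error, since each bar is 1 library). The hnRNP sum is lowest in replicate 1, at 1230, on this scale and as a share of counts; the SRRM and SR sums are highest there on this scale only.

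What the members share beyond their names was also looked for in the annotation. Of the 46 protein-coding members, 26 (56.5%) have an annotated transcript subject to nonsense-mediated decay, beside 30% of 7969 tested protein-coding genes. The share was 9 of 11 for SR genes, 10 of 20 for hnRNP genes, 4 of 4 for SRRM and 2 of 2 for U2AF, but 1 of 9 for SF3 genes. The members here include those not tested. Their median number of annotated transcripts was 7, beside 6 in the tested protein-coding genes. By family it was 7 for SR, 8 for hnRNP, 9 for SRRM and for U2AF, and 4 for SF3. The part of transcript number in these shares was not tested. Transcripts with a retained intron are annotated for 35 members (76.1%) and for 62.2% of the tested protein-coding genes. Counts per gene do not separate these transcripts from the coding ones. The merged exons were 2.34 times the median coding transcript in the members and 1.93 times in the tested protein-coding genes, but 1.84 times in the SF3 genes.

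Other splicing genes were described in the same way. Among all tested genes 10.5% were above the median gene and 4.2% below. The lists in this paragraph had 10, 8.7, 7.69 and 5% above, in the order given, which is near or under that share. Of hnRNP proteins under other symbols, 1 of 10 tested was above the median gene and none below: Ptbp3, a polypyrimidine tract binder, with 35.4, 31.1 and 34.3 CPM per kb. Second in that list was Ralyl, and the lowest was Raly, with 0, 220 and 0 counts. Of SR-related proteins and the kinases that phosphorylate them, 2 of 23 were above and none below. These were Pnn, with 200.7, 28.4 and 51.7 CPM per kb, and Luc7l3, with 97.1, 45.0 and 35.9, both highest in replicate 1, and the lowest of the list was the kinase Srpk3. Of the U2 snRNP and 3′ splice site list, 1 of 13 was above and none below, Rbm25. Second by mean CPM per kb was Rbm17, through replicate 1, while Rbm39 and Ddx46 had higher log2 levels (1.93 and 1.87 against 1.74), and U2af1l4 was at 0 counts in every library. Of the core spliceosome, 1 of 20 was above and none below, Prpf8, the central scaffold of the catalytic core, with 18.6, 36.9 and 54.6 CPM per kb. Txnl4a had the highest mean of that list only through replicate 1, with 287, 5.88 and 6.70 CPM per kb, and Snrpf the lowest with 0, 1 and 0 counts.

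Of the tissue-restricted splicing regulators, 9 of 20 were above and none below, beside 10.5 and 4.2% of all tested genes. Their median log2 level over all 21 listed was 1.69. Rbfox1, a regulator of neuronal exons, led them with 14087, 40608 and 10616 counts, or 755, 403 and 206 CPM per kb, and Celf4 followed with 113, 92.6 and 60.1. The lowest was Mbnl3, with 0, 19 and 3 counts. Of the 6 nuclear long noncoding RNAs, 3 were above and none below, with Malat1 and Snhg11 highest by mean CPM per kb and Neat1 lowest; by log2 level Meg3 (4.87) was level with Snhg11 (4.84). The difference between these lists and the members was not tested.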

How the data were processed

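Whole-number read counts per gene symbol were deposited by the authors, 1 file per immunopurified library, and not normalised or pooled. STAR 2.0.0e, HTSeq and mm10 are named in the submitters' processing notes. Annotation and strand setting are not given in the sources used here. Summary entries for reads without a gene entered neither library sizes nor tests.

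In R 4.3.3, filterByExpr (edgeR 4.0.16, 1 group) kept 8510 genes; 8138 of them (95.6%) had an exon length in GENCODE vM21 (GRCm38), and the counts may rest on another annotation. Log2 CPM per kb of merged exon used TMM factors (0.793, 1.19 and 1.06) and a prior count of 2. Levels minus the library's median tested gene were tested with limma 3.58.1 (trend, TREAT, log2 threshold 1, Benjamini-Hochberg over all tested genes, threshold 0.05). A Poisson chi-square test compared the counts of each gene with effective library sizes over all 8510 genes. The 10 pairs were tested by exact two-sided sign flips. A count of 0 allows 3 counts, or 0.707, 0.131 and 0.257 CPM in replicates 1 to 3; PCR copies are not independent, so this limit covers counting error alone. Shared sequence was found by matching 50-base windows of all transcripts.

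In a simulation of 8138 genes, 91% of those placed 16-fold over the median were called by the level test, as were 0.5% of those placed at it. Of the members only Srrm2, at a log2 level of 4.59, lay that far out, and the share called at smaller distances was not measured. The sampling noise test called 100% of 4-fold changes and 0.0504% of unchanged genes. The members and lists were chosen with earlier results of these data known. Values in every library are given for the 5 highest and 2 lowest hnRNP and SR members, all SF3, SRRM and U2AF members, the 3 largest and 3 smallest ranges, all paired genes and genes at 0 counts; other lists give their 2 highest genes and the lowest. The listed older symbols Hnrpdl and Hnrpll matched no gene; both are members under their current symbols.

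Also tried were size factors from DESeq2 1.42.0, no filter, prior count 0.5, CPM without length, the longest transcript as length, edgeR's quasi-likelihood fit with the threshold test computed from its estimates, a log2 threshold of 0, each replicate left out, and thinning to the smallest library; the median coding transcript length was added after seeing the data. Figures were drawn with matplotlib 3.10.9 in Python 3.11.15.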

Additional observations from a re-analysis of the deposited data

How the results depend on the processing

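No paired analysis was possible because there is only 1 group. The count of members above the median tested gene, 3 of 40, was 1 to 14 when a replicate was left out: 14 without replicate 1, 1 without replicate 2 and 2 without replicate 3. It was 20 of 47 with no filter, which lowers the median gene, 13 with a log2 threshold of 0, 8 on CPM without length, 6 with the median coding transcript, 5 with the longest transcript and 5 with edgeR's quasi-likelihood test. In the same order 19.4, 21.8, 13.9, 12.5, 10.4 and 13.7% of all genes tested were above. The count below, 0 of 40, was 0 to 1 when a replicate was left out (Sf3a3 without replicate 2), 2 with a log2 threshold of 0, and 1 (Srrm3) after thinning. Of the pairs, Hnrnpa2b1 minus Hnrnpa1 went from -0.08 to 0.99 on CPM, 0.76 with the longest transcript and 1.07 with the median coding transcript. Without replicate 1 it was 0.26. U2af2 minus U2af1 went from 0.43 to -0.12 with the longest transcript, -0.64 without replicate 1 and -0.088 with the median coding transcript. Hnrnpu minus Hnrnpul1 went from 0.50 to -0.095 with the longest transcript, -0.11 without replicate 3 and -0.27 with the median coding transcript. In the same order Hnrnpul2 minus Hnrnpul1 went from 0.34 to -0.38, -0.27 and -0.55. Srsf5 minus Srsf6 was 2.20 on CPM and 2.22 with the longest transcript, Srsf11 minus Srsf1 was 3.34 and 3.40 with the longest and the median coding transcript, and Srrm2 minus Srrm1 was 4.999 with the latter. Among members given with values in every library, levels that were not called changed sign as follows. With no filter Hnrnpm was at 1.45, Sf3a1 at 1.02, Sf3a3 at 0.15, Sf3b3 at 1.67, Srsf1 at 1.94, Srsf12 at 1.66, Srsf6 at 1.31, U2af1 at 1.44 and U2af2 at 1.87. On CPM Hnrnpm was at 0.11, Sf3b3 at 0.78, Sf3b6 at -0.78, Srsf1 at 0.11, Srsf7 at -0.047 and Srsf9 at -1.03. With the longest transcript Hnrnpm was at 0.077, Sf3b3 at 0.55, U2af1 at 0.36 and U2af2 at 0.25. With edgeR Sf3b3 was at 0.31, Srsf1 at 0.0055, Srsf12 at 0.54 and U2af1 at 0.023, with thinning Sf3b6 at -0.17, and with the median coding transcript Hnrnpm at 0.56. Leaving out each replicate gave -0.57 to 0.024 for Hnrnpm, -1.14 to 0.0042 for Sf3a1, -0.98 to 0.47 for Sf3b3, -0.24 to 0.57 for Srsf1, -0.96 to 1.55 for Srsf12, -0.83 to 0.072 for Srsf6, -0.034 to 1.85 for Srsf7, -0.37 to 2.26 for Srsf9, -1.14 to 0.83 for U2af1 and -0.089 to 0.23 for U2af2. Of the other members, Hnrnpab, Hnrnpdl, Hnrnpf, Hnrnpl, Hnrnpll, Hnrnpr and Srsf10 changed sign under at least 1 alternative, on CPM Hnrnpab to -0.54, Hnrnpll to 0.43, Hnrnpr to 0.43 and Srsf10 to 0.22. The cause of these changes was not tested. Low counts kept 7 of the 47 members from being tested, and not through replicate 1 alone, which had the fewest counts. Without replicate 1 Hnrnph2, Hnrnph3 and Sf3b5 passed the filter, and without replicate 3 Sf3a2, Sf3b4 and Srsf4 did. Hnrnpa1l2 passed with no replicate left out.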
